A study of Mus musculus with 8 samples.

Results

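The receptor chains described here are 10 genes that were chosen by name: Csf3r, Csf2ra, Csf2rb, Csf2rb2, Csf1r, Il6ra, Il6st, Il4ra, Il17ra and Il10ra. They encode receptors for colony-stimulating factors and interleukins that act on myeloid cells, and all 10 were found among the 55414 genes listed in the count files. RNA was sequenced from spleen neutrophils of 4 wild-type (WT) mice and 4 Cxcr2-/- mice, with 1 library per mouse. All animals were FVB, 10 weeks old and housed under SOPF conditions, which are barrier conditions that keep out specific and opportunistic pathogens. The Cxcr2 deletion was present in the whole body and had been crossed onto FVB, so that every cell of the animal lacked the receptor and not the neutrophils alone. Cells were enriched with CD11b beads and sorted as CD45+ CD11b+ Ly6G+ F4/80- before RNA was taken.

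Neutrophils are made in the bone marrow under the control of G-CSF, which signals through a homodimer of the chain encoded by Csf3r. GM-CSF and IL-3 act through receptors made of a ligand-specific alpha chain and a beta chain, and the mouse has a beta chain used by GM-CSF, IL-3 and IL-5 receptors (Csf2rb) and a close copy used by the IL-3 receptor (Csf2rb2). Most of these chains have no enzyme of their own and signal through bound JAK kinases and STAT factors. Csf1r is itself a tyrosine kinase, and Il17ra signals through the adaptor encoded by Traf3ip2.

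The Csf2rb and Csf2rb2 genes are shown first because their values depend on reads being told apart between near copies. In GENCODE M21 (GRCm38), Csf2rb (ENSMUSG00000071713) lies on the plus strand at chr15:78325752-78353847 and Csf2rb2 (ENSMUSG00000071714) on the minus strand at chr15:78282507-78305721, 20030 bases away. The coding sequences, 2688 and 2634 bases long, were identical at 95.24% of 2628 aligned bases, and the longest identical run was 242 bases. Of the distinct 150-base stretches in Csf2rb transcripts, 165 of 7168 (2.30%) were also present in Csf2rb2 transcripts, and the same 165 were 3.34% of the 4947 stretches of Csf2rb2. The reads were paired and 150 bases long, and most stretches of this length were not shared. A 60-base stretch of coding sequence without any difference, in exon 5 of Csf2rb (chr15:78338834-78338893, plus strand) and exon 4 of Csf2rb2 (chr15:78294438-78294497, minus strand), is printed as an example of shared sequence. The 60 bases that begin with its last base, at chr15:78338893-78338952 in Csf2rb and chr15:78294379-78294438 in Csf2rb2, held 13 differences, which are in capitals.
Csf2rb and Csf2rb2, shared stretch: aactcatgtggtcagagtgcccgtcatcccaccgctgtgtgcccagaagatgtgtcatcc
Csf2rb, differing stretch: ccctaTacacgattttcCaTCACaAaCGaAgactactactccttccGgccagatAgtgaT
Csf2rb2, differing stretch: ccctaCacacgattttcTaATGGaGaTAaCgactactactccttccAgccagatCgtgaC

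Promoter sequences from RefSeq (GRCm38.p6, 250 bases before to 50 after the start of the gene) were at hand for 6 of the 10 genes: Csf3r, Csf2ra, Csf2rb2, Il6ra, Il6st and Il4ra. They were searched on both strands for GAGGAA (reverse complement TTCCTC), the core letters of PU.1 sites, for TTGCNNAA, the letters of C/EBP sites, and for TTCNNNGAA, the letters of STAT sites, which reads the same on either strand. GAGGAA was present in Csf3r, Il6ra, Csf2rb2 and Csf2ra, and in 28.28% of 32851 mouse promoters of the same length. TTCNNNGAA was present in Csf2rb2 alone of the 6 and in 8.3% of all promoters, and TTGCNNAA was in none of the 6 and in 10.8% of all. The RefSeq start of Csf3r lies 109 bases, that of Il4ra 151 bases and that of Csf2ra 11 bases inside the gene as M21 gives it, and the GAGGAA of Csf3r, at position -86 of the RefSeq start, is within the M21 gene. Both starts are the same base for Csf2rb2, Il6ra and Il6st. The 250 bases before the start of Csf2rb2 (chr15:78305722-78305971, minus strand) are printed for the chain with the highest log2 fold change, with motif letters in capitals. These matches describe letters and were not tested as binding sites.
Csf2rb2: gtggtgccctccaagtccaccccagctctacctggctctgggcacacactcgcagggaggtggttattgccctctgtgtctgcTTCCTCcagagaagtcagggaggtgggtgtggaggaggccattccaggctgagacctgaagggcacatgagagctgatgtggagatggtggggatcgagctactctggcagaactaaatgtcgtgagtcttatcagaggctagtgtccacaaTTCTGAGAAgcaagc

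The libraries held between 34220182 and 46233555 counts on genes in WT and between 37549648 and 43789253 in Cxcr2-/-. Reads that fell on no gene made up 35.4% to 45.9% in WT and 30.5% to 36.1% in Cxcr2-/-. The base was the reads counted on genes, on no gene or as ambiguous between genes. Cxcr2 itself fell from 1956 ± 221 CPM (mean ± SD, n = 4) to 17.1 ± 3.46, where CPM is the count scaled to the library's size, and no library went against its label. All 8 neutrophil markers were detected in every library, and 7 of them were higher in Cxcr2-/- (summed CPM of 71180.0 to 88250.0, against 27050.0 to 40760.0 in WT). The 5 markers of early granulopoiesis, granule protein genes such as Mpo and Elane, were all higher, with sums of 70.5 to 386 CPM against 4.37 to 17.3. Of the T cell markers none passed, and Cd3d alone held 80.1 to 110.0 CPM in WT and 87.3 to 136 in Cxcr2-/-, while each of the other 4 was at most 1.35 CPM in any library. Of 6 B cell markers 5 were lower in Cxcr2-/- (sums of 24.6 to 63.1 CPM in WT and 13.6 to 29.5 in Cxcr2-/-). Of 5 tested dendritic cell markers 2 were lower (9.54 to 26.8 and 7.53 to 10.6 CPM), and of 4 eosinophil markers 2 were higher and 2 lower (48.8 to 68.9 and 37.6 to 64.1 CPM). The part of these markers' cells in the receptor values below was not tested, and in sorted bulk RNA fewer cells of a type and less RNA per cell cannot be told apart.

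Calls required a change of 1.5-fold or more together with an adjusted p below 0.05. Of the 16778 genes tested, 15.7% were called higher in Cxcr2-/- and 15.7% lower. Of the 10 receptor genes, which were all tested, 2 were called higher (Csf2rb2 and Il4ra) and 3 lower (Csf3r, Csf1r and Il10ra). Without the fold limit, 7 of the 10 passed an adjusted p of 0.05, of which 3 were higher and 4 lower, where 44.7% of all tested genes passed. The WT and Cxcr2-/- libraries did not overlap for those 7 genes, against 41.6% of all genes without overlap. The median log2 fold change was -0.19 over the 10 genes and 0.01 over all genes tested. Csf2ra, Il6st and Il17ra did not pass.

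**Figure D1:**
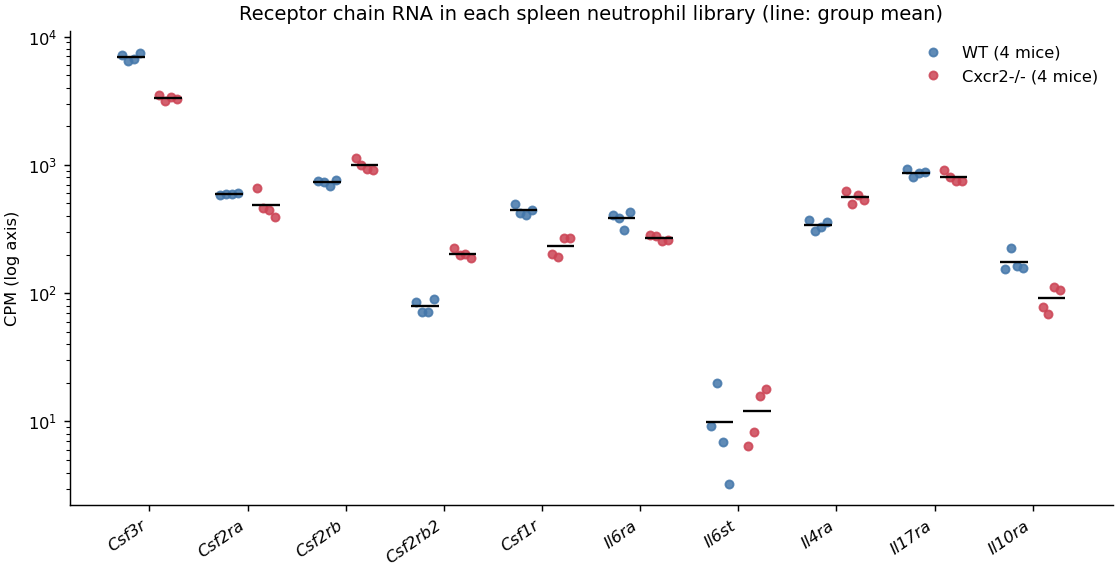
CPM of each receptor gene (log axis) in the 4 WT libraries (blue) and the 4 Cxcr2-/- libraries (red), with 1 point per mouse and a line at the group mean. Csf3r stands far above the other chains in both genotypes, and the red and blue points are apart for 7 genes and overlap for Csf2ra, Il6st and Il17ra.

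The G-CSF receptor chain Csf3r was the most abundant of the 10 and fell in Cxcr2-/-. Its gene (ENSMUSG00000028859) lies at chr4:126024550-126044440. The 4 WT libraries held 7226, 6504, 6642 and 7469.7 CPM, and the 4 Cxcr2-/- libraries 3513, 3164, 3372 and 3286. The lowest WT library was thus well above the highest Cxcr2-/- library. The means were 6960.3 ± 462 and 3334 ± 147 CPM (SD, n = 4), 2.09-fold higher in WT, with a log2 fold change of -1.06 (SE 0.11, 95% interval -1.31 to -0.82, edgeR adjusted p = 1.11e-05). The summed reads of all 10 genes took 1.01% to 1.12% of a WT library and 0.666% to 0.764% of a Cxcr2-/- library, scaled by the normalization factors. Csf3r alone was 64.6% to 66.7% of that sum in WT and 46.0% to 49.1% in Cxcr2-/-.

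The GM-CSF and IL-3 receptor chains moved unequally, with both beta chains higher in Cxcr2-/- and the alpha chain Csf2ra not shown to change. Csf2rb2, the beta chain of the IL-3 receptor, held 84.7, 71.9, 71.4 and 89.7 CPM in WT and 224, 198, 200.4 and 189 in Cxcr2-/-. The lowest Cxcr2-/- library was far above the highest WT library. The mean rose 2.56-fold, from 79.4 ± 9.21 to 203 ± 15.04 CPM (log2 fold change 1.36, SE 0.10, 95% interval 1.13 to 1.58, edgeR adjusted p = 9.34e-07). Csf2rb, the shared beta chain, held 747, 740.2, 678 and 764 CPM in WT and 1134, 991, 933 and 905 in Cxcr2-/-. The groups were apart here too, but the rise was smaller, 1.35-fold (732 ± 37.6 to 991 ± 102 CPM, log2 fold change 0.44, SE 0.10, 95% interval 0.21 to 0.66, edgeR adjusted p = 0.00456) and under the 1.5-fold limit.

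Csf2ra encodes the alpha chain that binds GM-CSF (ENSMUSG00000059326, chr19:61223957-61228429). It was steady among the WT mice, with 583, 589, 589 and 605 CPM, and spread widely in Cxcr2-/-, with 664, 458, 444 and 390.1. The Cxcr2-/- replicate 1 was above all WT libraries while the other three were below all of them. The log2 fold change was -0.27 (SE 0.14, 95% interval -0.59 to 0.04, edgeR adjusted p = 0.142). Without Cxcr2-/- replicate 1 it was -0.45 with an adjusted p of 0.0029 in edgeR, so the lack of a pass depends on that library. It also depends on the scaling. With all 8 libraries, Csf2ra was at -0.40 with upper-quartile scaling (edgeR adjusted p = 0.0341) and -0.38 with total counts (edgeR adjusted p = 0.0213). Both scalings also moved the median of all genes downwards. The IL-3 alpha chain Il3ra was low throughout and higher in Cxcr2-/-, with 3.91 ± 0.610 CPM against 2.12 ± 0.606 in WT (edgeR adjusted p = 0.00787). Il5ra, the IL-5 alpha chain, was too low to be tested, with at most 0.33 CPM in any library.

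Csf1r, the tyrosine kinase receptor for M-CSF and IL-34 and a known mark of monocytes and macrophages, fell in Cxcr2-/-. Its gene (ENSMUSG00000024621) lies at chr18:61100598-61132149. It held 499, 425, 403 and 442 CPM in WT and 202, 189.6, 269 and 268 in Cxcr2-/-, with a wide gap between the groups. The means were 442 ± 41.1 and 232 ± 42.1 CPM, 1.90-fold higher in WT (log2 fold change -0.93, SE 0.13, 95% interval -1.21 to -0.64, edgeR adjusted p = 1.08e-04). Exons of Csf1r share 873 bases, 15.1% of their length, with Hmgxb3 on the opposite strand, and Hmgxb3 held 18.3 ± 1.43 CPM in WT and 15.5 ± 1.18 in Cxcr2-/-. The libraries kept strand, but the strand setting of the counting was not given in the sources used here.

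Of the 14 monocyte and macrophage markers, all tested, 2 were higher in Cxcr2-/- (Ly6c2 and Ccr2), 1 was lower (Adgre1, which encodes F4/80) and 11 did not pass. Their sums were 269 to 336 CPM in WT and 662 to 719 in Cxcr2-/-, and Ly6c2 made up most of them. Whether the Ly6c2 reads came from monocytes or from the neutrophils themselves was not tested. Adgre1 held 26.6 to 36.5 CPM in WT and 9.60 to 16.3 in Cxcr2-/-. No marker of the list was at 0 in all libraries. Without Ly6c2 and Ccr2 the sums were 58.9, 106, 55.5 and 36.4 CPM in WT and 21.7, 19.8, 45.1 and 52.1 in Cxcr2-/-. In a fit with the mean level of the 14 markers as a covariate, Csf1r was called lower (log2 fold change -0.92, edgeR adjusted p = 5.29e-05). That mean joins markers that were higher in Cxcr2-/- (Ly6c2 and Ccr2) with one that was lower (Adgre1). It therefore does not follow macrophage content alone, and the part of such cells in the fall of Csf1r was not tested.

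The IL-6 receptor is made of the IL-6 binding chain Il6ra and the signalling chain gp130 (Il6st), which also serves the receptors of IL-11, LIF and oncostatin M. Il6ra (ENSMUSG00000027947, chr3:89864059-89913196) fell in Cxcr2-/-. It held 404, 388, 313 and 429 CPM in WT and 282, 277, 256 and 259 in Cxcr2-/-, so that the lowest WT library was still above the highest Cxcr2-/- library. The means were 384 ± 49.9 and 268 ± 12.8 CPM, 1.43-fold higher in WT and under the 1.5-fold limit (log2 fold change -0.51, SE 0.11, 95% interval -0.75 to -0.28, edgeR adjusted p = 0.00194). Il6ra exons share 242 bases, 2.8% of their length, with the antisense gene Gm42809, which held 1.09 ± 0.0943 CPM in WT and 0.583 ± 0.232 in Cxcr2-/-.

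Il6st (ENSMUSG00000021756, chr13:112464070-112510086) was the lowest of the 10 chains and varied more among mice than between genotypes. It held 9.15, 19.96, 6.90 and 3.27 CPM in WT and 6.47, 8.27, 15.7 and 17.9 in Cxcr2-/-, and the groups overlapped over most of their range. The log2 fold change was 0.29 (SE 0.45, 95% interval -0.68 to 1.26, edgeR adjusted p = 0.628). The highest WT library (replicate 2) and the highest Cxcr2-/- library (replicate 4) were also the highest of their groups in the summed macrophage markers without Ly6c2 and Ccr2. With the 14 markers as a covariate the log2 fold change was 0.70 (edgeR adjusted p = 0.00379), and leaving out a WT library moved it between 0.01 (replicate 4) and 0.88 (replicate 2). The value of Il6st therefore depends on single libraries and on how other myeloid markers are treated. Other gp130 partners were also low: Lifr, the LIF receptor chain, fell from 10.1 ± 1.17 to 3.99 ± 1.03 CPM (edgeR adjusted p = 1.04e-04), and Osmr, the oncostatin M chain, reached at most 0.08 CPM and was not tested.

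Among the interleukin receptor chains that use other partners, Il4ra rose, Il10ra fell and Il17ra was not shown to change. Il4ra (ENSMUSG00000030748, chr7:125552120-125579474) binds IL-4 and forms receptors with Il2rg or Il13ra1. It held 370.4, 304, 327 and 356 CPM in WT and 625, 498, 577 and 529.8 in Cxcr2-/-, with no overlap. The mean rose 1.64-fold, from 339 ± 29.6 to 557 ± 55.4 CPM (log2 fold change 0.72, SE 0.11, 95% interval 0.49 to 0.95, edgeR adjusted p = 1.57e-04). Its exons share 571 bases, 9.51% of their length, with the antisense gene Gm44876, which was under 2.5 CPM in all libraries. Of its partners, Il2rg was higher in Cxcr2-/-, at 12.8 to 19.4 CPM against 9.72 to 13.1 in WT, with overlap (log2 fold change 0.52, edgeR adjusted p = 0.0164), and Il13ra1 did not pass, at 139 to 221 CPM against 171 to 263 (95% interval -0.61 to 0.05). These partner chains, and those of Il10ra and Il17ra, were singled out after their values were seen.

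Il10ra (ENSMUSG00000032089, chr9:45253837-45269149), the IL-10 binding chain, held 154, 225, 161 and 158 CPM in WT and 77.9, 68.3, 112 and 106 in Cxcr2-/-. WT replicate 2 stood above the other WT libraries, but each WT library was above each Cxcr2-/- library. The means were 174 ± 33.6 and 91.0 ± 21.2 CPM, 1.92-fold higher in WT (log2 fold change -0.94, SE 0.17, 95% interval -1.30 to -0.57, edgeR adjusted p = 6.54e-04). Its partner Il10rb was at 77.1 to 87.3 CPM in WT and 70.02 to 79.96 in Cxcr2-/- and did not pass (95% interval -0.32 to 0.04). Il17ra (ENSMUSG00000002897, chr6:120463247-120487559) held 927, 798, 864 and 876 CPM in WT and 912, 809, 744 and 749 in Cxcr2-/-, which overlapped. Its log2 fold change was -0.11 (SE 0.10, 95% interval -0.33 to 0.12, edgeR adjusted p = 0.425). Il17rc, with which Il17ra forms the IL-17A receptor, was at most 0.38 CPM in any library and was not tested.

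**Figure D2:**
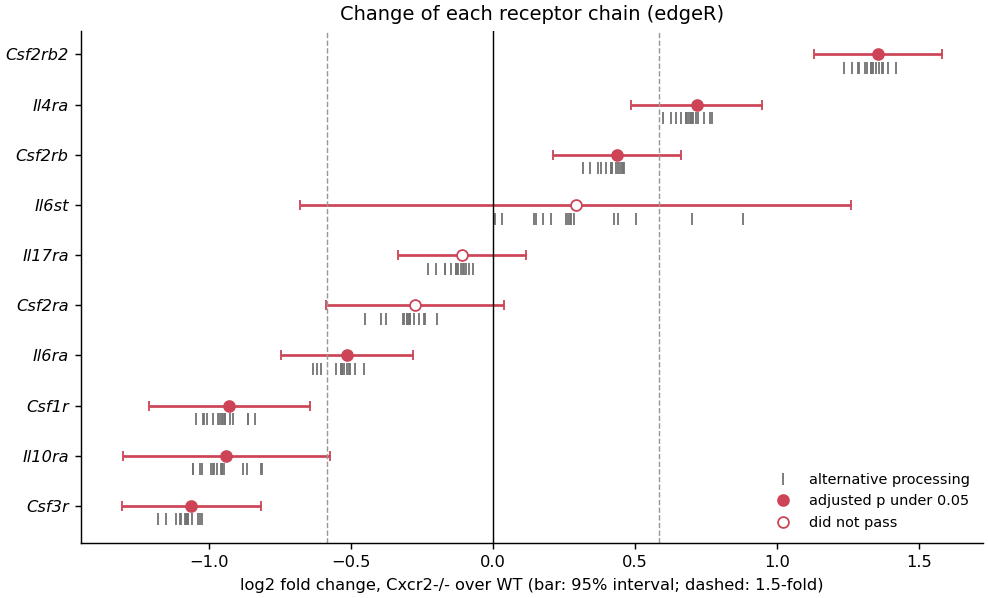
Log2 fold change of each receptor gene, Cxcr2-/- over WT, from edgeR, with bars for the 95% interval, dashed lines at 1.5-fold and grey ticks for each alternative processing. Filled points passed an adjusted p of 0.05. Csf2rb2 has the highest value at 1.36 and Csf3r the lowest at -1.06, and the ticks of Il6st spread the most.

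Levels were compared between genes as CPM per kb of exons, with lengths from GENCODE M21. In WT the order was led by Csf3r at 1929 ± 128 CPM per kb, then Csf2ra at 206 ± 3.20, Csf2rb at 101 ± 5.17 and Il17ra at 99.98 ± 6.10. Csf2rb and Il17ra did not differ beyond their spread. Csf1r followed at 76.6 ± 7.11, then Il4ra at 56.5, Il10ra at 49.9 and Il6ra at 44.4, of which each overlapped the next, and Csf2rb2 at 16.8 and Il6st at 0.885 closed the order. In Cxcr2-/- Csf3r still led at 924 ± 40.7 CPM per kb, followed by Csf2ra at 170 ± 41.8 and Csf2rb at 136 ± 14.1, which now overlapped. Il4ra (92.9) came next and was within the spread of Il17ra (92.8). Csf2rb2 (42.9), ninth of the 10 in WT, was sixth here and overlapped Csf1r (40.2), and Il6ra (31.1), Il10ra (26.0) and Il6st (1.09) came last.

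Ratios of chains within a library do not depend on how that library was scaled. For 5 pairs, the difference in mean log2 ratio of CPM per kb was tested with a two-sided exact permutation test over 4 WT and 4 Cxcr2-/- libraries, for which 0.0286 is the smallest p, and p-values were adjusted over the 5 pairs. Csf2ra over Csf2rb, the alpha to the beta chain of the GM-CSF receptor, was 1.98, 2.02, 2.20 and 2.01 in WT and 1.48, 1.17, 1.21 and 1.09 in Cxcr2-/-. This is a 1.67-fold drop with no overlap (exact permutation p = 0.0286, adjusted 0.0476), although Csf2ra on its own did not pass. Csf2rb over Csf2rb2 was 5.75, 6.70, 6.19 and 5.55 in WT and 3.29, 3.26, 3.03 and 3.11 in Cxcr2-/-, a 1.90-fold drop (exact permutation p = 0.0286, adjusted 0.0476). How reads from stretches shared by both genes were counted was not given in the sources used here.

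Csf3r over Csf2rb, the G-CSF chain to the shared beta chain, was 19.5, 17.7, 19.8 and 19.7 in WT and 6.24, 6.44, 7.29 and 7.32 in Cxcr2-/-. It had the largest drop of the 5 ratios, 2.81-fold (exact permutation p = 0.0286, adjusted 0.0476). Csf3r fell and Csf2rb rose, each without overlap, so the groups had to be apart for this ratio. Its p was thus fixed at the smallest value and adds no evidence to the results of the single genes. Each ratio that passed contains Csf2rb. Csf3r over Csf1r was 23.2, 24.5, 26.4 and 27.1 in WT and 27.8, 26.7, 20.03 and 19.7 in Cxcr2-/-, with overlap and a log2 difference of -0.12 (exact permutation p = 0.40). Both genes fell, and a difference in the size of the fall was not detected. Il6ra over Il6st ranged from 25.0 to 169 in WT and from 18.7 to 56.0 in Cxcr2-/-, with a log2 difference of -0.97 (exact permutation p = 0.143, adjusted 0.179). It was -0.48 without WT replicate 4 and -1.40 without WT replicate 2, and passed in neither. Il6st, the lower term of that ratio, was the lowest and most variable of the 10 genes.

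**Figure D3:**
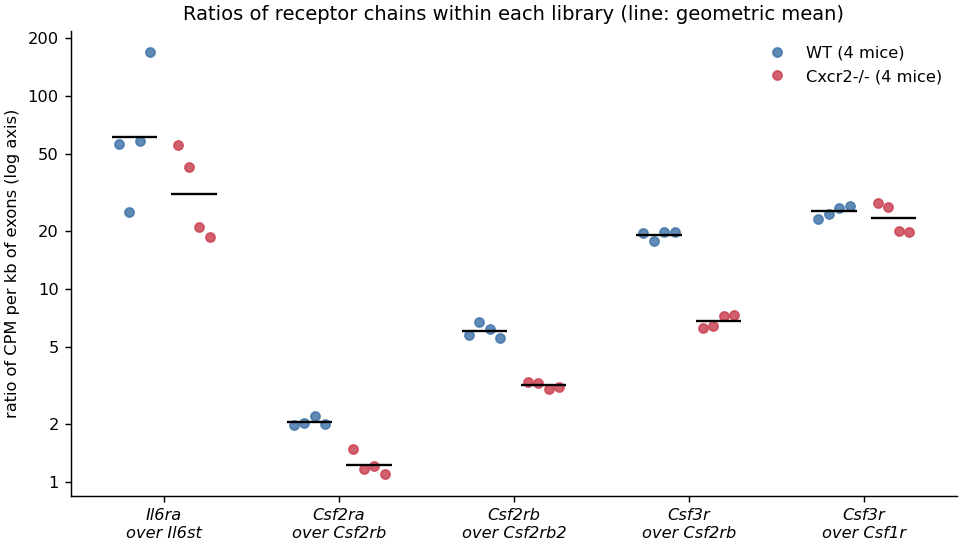
Ratio of CPM per kb of exons (log axis) for 5 pairs of receptor chains, with 1 point per library (blue WT, red Cxcr2-/-) and a line at the geometric mean. The groups are apart for Csf2ra over Csf2rb, Csf2rb over Csf2rb2 and Csf3r over Csf2rb, and overlap for both other pairs.

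Of 51 other cytokine receptor chains, 33 were expressed well enough to be tested, and 6 passed an adjusted p of 0.05 as higher, 7 as lower and 20 did not pass, with a median log2 fold change of -0.14. With the 1.5-fold limit 3 were higher and 5 lower. Here and in the lists that follow, 44.7% of all tested genes passed the adjusted p, and 15.7% were called in each direction with the fold limit. The interleukin-1 family was among both sets: Il1rl2, the IL-36 receptor, rose from 1.42 ± 0.287 to 3.60 ± 0.536 CPM (log2 fold change 1.35, edgeR adjusted p = 2.60e-04), and Il18r1, the IL-18 binding chain, from 33.1 ± 2.65 to 52.4 ± 9.23 (0.66, 8.35e-04). Il1rap, the shared accessory chain, fell from 261 ± 24.1 to 129 ± 17.4 CPM (log2 fold change -1.02, edgeR adjusted p = 1.69e-05). The decoy receptor Il1r2 was lower, at 254 ± 86.7 CPM against 603 ± 249 (log2 fold change -1.25, edgeR adjusted p = 0.00356), but its libraries overlapped.

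Most ligand genes were at or near 0. Of 18 ligand genes, 12 were too low to be tested, among them Csf3, Csf2, Il3, Il6, Il4 and Il17a, which each stayed under 0.2 CPM in all libraries. Of the 6 tested, 1 rose, 3 fell and 2 did not pass (median log2 fold change -0.84), and all 4 changes were past 1.5-fold. Csf1, the gene of M-CSF and so of the ligand of Csf1r, fell the most, from 397, 522, 339 and 536 CPM in WT to 108, 73.6, 111 and 124 in Cxcr2-/- (means 449 ± 96.1 and 104 ± 21.5, log2 fold change -2.11, edgeR adjusted p = 2.19e-06). Osm, which signals through gp130, fell from 289.8 ± 41.7 to 141 ± 35.8 CPM (-1.04, edgeR adjusted p = 3.30e-04). The low-level Clcf1, a cardiotrophin-like cytokine, fell from 3.06 ± 0.857 to 0.831 ± 0.189 CPM (-1.88, edgeR adjusted p = 1.35e-04), and Il27 rose from 7.37 ± 0.479 to 13.99 ± 1.60 (0.93, edgeR adjusted p = 7.38e-05).

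All 29 receptor-proximal kinases, STATs and adaptors were tested, and 5 were higher, 10 lower and 14 did not pass at an adjusted p of 0.05 (median log2 fold change -0.16). With the 1.5-fold limit 5 were higher and 4 lower. Jak3, the kinase bound to the common gamma chain Il2rg, rose from 32.98 ± 3.21 to 124 ± 21.2 CPM (log2 fold change 1.91, edgeR adjusted p = 3.03e-07). Jak1, Jak2, Stat5b and Stat6 were lower and Stat3 did not pass: Jak2, the kinase bound to the receptors for GM-CSF and G-CSF, held 219.8 to 253 CPM in WT and 166 to 187 in Cxcr2-/- (-0.45, edgeR adjusted p = 0.00116), and Stat3, at 496 to 563 and 519 to 630.1 CPM, had a log2 fold change of 0.09 (edgeR adjusted p = 0.51). Jak1, Jak2, Stat3, Stat5b and Stat6 were named after their values were seen. The strongest fall was in Stat4, known for IL-12 signalling, from 27.4 ± 3.33 to 2.64 ± 0.651 CPM (-3.38, edgeR adjusted p = 7.77e-08). The adaptors Irs2, which is bound to the IL-4 receptor, and Gab2 fell by 1.06 and 1.01 on the log2 scale (edgeR adjusted p = 1.30e-05 and 9.01e-06). The phosphatase gene Ptpn11 and the scaffold gene Rack1 rose by 0.66 and 0.94 (edgeR adjusted p = 7.00e-04 and 0.00127).

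Among 17 genes for feedback inhibitors and receptor turnover, 16 were tested, with 5 higher, 6 lower and 5 that did not pass at an adjusted p of 0.05 (median log2 fold change 0.04). With the 1.5-fold limit 2 were higher and 1 lower. Socs3, which binds the activated G-CSF receptor and gp130 and limits their signal, fell from 648 ± 57.5 to 459 ± 56.7 CPM (log2 fold change -0.50, edgeR adjusted p = 0.00352), and Socs1 and Socs5 were lower at lower levels. Cish, an inhibitor induced by STAT5, rose from 1.23 ± 0.204 to 4.06 ± 1.33 CPM (1.72, edgeR adjusted p = 1.42e-04), and Socs6 from 7.59 ± 0.690 to 10.2 ± 1.09 (0.43, edgeR adjusted p = 0.0177). Elane, the neutrophil elastase gene, which can cleave the G-CSF receptor and is also in the list of early granulopoiesis markers, rose from 1.22 ± 0.746 to 43.8 ± 38.5 CPM with a very wide spread among the Cxcr2-/- mice (5.15, edgeR adjusted p = 7.25e-05). It held 12.0 and 14.5 CPM in Cxcr2-/- replicates 1 and 2, and 55.5 and 93.2 in replicates 3 and 4.

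The 11 transcription factors known for regulating myeloid receptor genes were all tested, and 3 were higher, 2 lower and 6 did not pass at an adjusted p of 0.05 (median log2 fold change -0.06), a share near the 44.7% of all genes. With the 1.5-fold limit 3 were higher and 1 lower. Cebpb fell from 370.0 ± 17.4 to 183 ± 59.3 CPM (-1.01, edgeR adjusted p = 6.48e-04) and Cebpa from 26.5 ± 3.52 to 17.9 ± 1.399 (-0.57, edgeR adjusted p = 0.00140). Cebpe, a factor of granule-stage precursors, rose from 82.7 ± 6.09 to 186 ± 48.4 CPM (1.17, edgeR adjusted p = 6.58e-05). Myb and Gfi1, also known from early stages of granulocyte formation, rose by 0.90 and 0.64 on the log2 scale (edgeR adjusted p = 2.57e-05 and 0.00684). Spi1, which encodes PU.1, did not pass, at 646 to 804 CPM in WT and 612 to 811 in Cxcr2-/-.

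**Figure D4:**
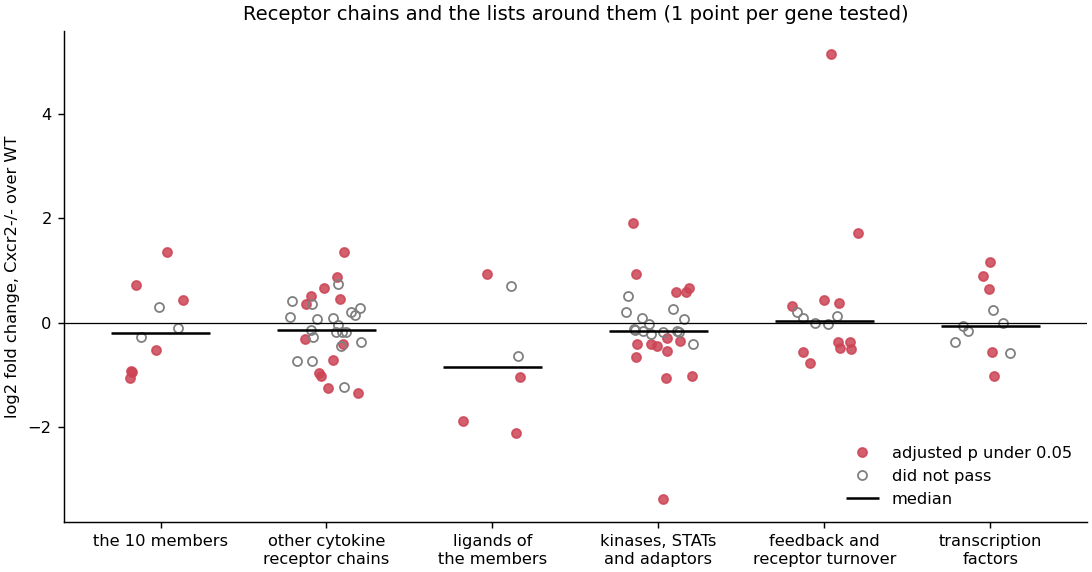
Log2 fold change, Cxcr2-/- over WT, of the 10 receptor genes and of 5 gene lists around them, with 1 point per tested gene, filled where the adjusted p was under 0.05, and a line at the median. Each list has genes on both sides of 0, with Elane the highest at 5.15 and Stat4 the lowest at -3.38.

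For each receptor gene, the gene with the most similar profile was taken as the one with the smallest root mean square distance between centred log2(CPM + 1) values over the 8 libraries, among 4217 well-expressed genes. This distance was 0.06 for Csf3r and its nearest gene Mylip, a ubiquitin ligase gene that fell from 43.0 to 21.3 CPM. It was 0.07 for Csf2rb2 and Rhobtb2, which rose from 19.5 to 53.1 CPM, and 0.08 for Csf1r and the lysosomal activator gene Gm2a, which fell from 621 to 302 CPM. Il6ra was closest to the cannabinoid receptor gene Cnr2 (0.04), Csf2rb to Mgrn1 (0.04), Il4ra to Rfc2 (0.06) and Il10ra to Pde7b (0.11). The distance was largest for Il6st, whose nearest gene, the protease gene Ctss, was at 0.43, so no well-expressed gene followed it closely. Il6st itself was below the level of the genes compared (average log2 CPM 3.46). Genes at its own level were therefore not searched.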

How the data were processed

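Reads of rRNA-depleted, strand-specific libraries (paired, 150 bases) were trimmed and aligned to mm10 with STAR by the authors, who deposited HTSeq counts per gene for each sample. These are raw counts. Tool versions, the gene annotation and the strand setting are not given in the sources used here. Of the 52133 listed genes with an entry in GENCODE M21, 52096 carried a later identifier version, so coordinates and exon lengths, which are M21's (GRCm38, matched without version), may differ from those counted. Genes without an entry, 3281 in number, held 1.42% of counts.

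Rows without a gene were left out. Counts of all genes were fitted with the edgeR 4.0.16 quasi-likelihood test in R 4.3.3 (TMM, filterByExpr, genotype only, all 8 libraries), with Benjamini-Hochberg adjustment over 16778 genes. The script was tested on simulated data. A log2 fold change is Cxcr2-/- over WT. CPM uses TMM-scaled library sizes. Alternatives were DESeq2 1.42.0, other scalings and filters, a replicate block, a macrophage marker covariate and each library left out. The marker sum without Ly6c2 and Ccr2 was added after seeing the data. Each library is 1 mouse, and replicates differed by more than sampling noise. Among the receptor genes, Csf1r, Il10ra and Il6st were lower in Cxcr2-/- replicates 1 and 2 than in replicates 3 and 4. Csf2ra, Csf2rb, Il6ra and Il17ra were higher there, and Csf3r, Csf2rb2 and Il4ra were not split this way. This split was noticed after the values were seen, and its cause was not tested. The receptor genes, lists and tests were chosen with earlier results of these data known. Of each list, the text names by rule up to 3 passing genes with the highest and 3 with the lowest log2 fold change, and others (Spi1, Il5ra, Osmr, Il17rc, the untested ligands and those the text points out) were chosen after their values were seen. A protein motif search was not run.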

Additional observations from a re-analysis of the deposited data

Results flagged for a closer look

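Of 30 groups of 4 values examined among the receptor genes and their ratios, 2 held a library far from the other three, where chance gives about 1 in 20 groups. Il10ra was at 224.57 CPM in WT replicate 2, and the gap to the next WT library was 0.89 of the group's range. The ratio of Csf3r over Csf2rb was 17.72 in WT replicate 2, below the other WT libraries by 0.882 of the range. Both values lie in the same library, which also had the highest Il6st and the highest sum of macrophage markers without Ly6c2 and Ccr2, and their part in these values was not tested. Without WT replicate 2, Il10ra remained lower in Cxcr2-/- with an adjusted p under 0.05 in edgeR.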

How the results depend on the processing

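The 7 receptor genes that passed (Csf3r, Csf2rb, Csf2rb2, Csf1r, Il6ra, Il4ra and Il10ra) kept their direction and an adjusted p under 0.05 in all 16 alternative fits, and no value changed sign in any. The highest adjusted p among them was 0.0214, for Csf2rb. With a 2-fold limit, 1 gene was called higher and 1 lower, and without a fold limit 3 and 4. Leaving out 1 library gave 2 called higher in each fit and 3 to 4 lower. Upper-quartile scaling and total counts each gave 4 called lower, since Il6ra passed the 1.5-fold limit there (-0.63 and -0.60). The macrophage marker covariate gave 3 called higher, with Il6st at 0.70. Csf2ra passed with upper-quartile scaling (-0.40, adjusted p = 0.0341) and with total counts (-0.38, adjusted p = 0.0213). Upper-quartile scaling moved the median of all genes by -0.12 and gave 1975 higher and 3227 lower calls (37.97% higher), total counts gave 2051 and 2990 (40.69%), and the fit reported here 2628 and 2628. Against the moved median, Csf2ra lay -0.29 lower. The 5 ratios kept their direction in all 10 alternatives, and each kept its side of the threshold when 1 library was left out. Leaving out lengths or pairing the replicates cannot change the mean difference of a log2 ratio, so their equal values are no check. For the ratios without overlap, leaving out any library keeps the groups apart, so p stays at its smallest value by construction. With 3 against 4 libraries the smallest p is 0.0286. Csf3r over Csf1r ranged from -0.20 to -0.04 over these fits (-0.04 without Cxcr2-/- replicate 4).

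The replicate numbers name different mice. Deviations of same-numbered libraries correlated at 0.15, -0.187, 0.245 and -0.308, and numbers 1 and 3 alone were best partners. These 4 correlations differed in sign and showed no steady pairing by number, but they are too few to exclude one. The replicate block gave 2470 higher and 2518 lower calls over all genes and log2 fold changes of -1.06 for Csf3r, 1.36 for Csf2rb2 and 0.43 for Il6st, with the same 2 and 3 counts of called receptor genes. As 4 paired differences, the log2 ratios were -0.74 for Csf2ra over Csf2rb, -0.93 for Csf2rb over Csf2rb2 and -1.49 for Csf3r over Csf2rb. None could pass the exact test used, which flips the signs of the differences and compares their mean, since its smallest p is 0.125. At this depth counting error is small for all 10 genes, and the 4 mice per group limit the precision.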
